A study of Andropogon gerardi with 32 samples.

Results

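The genes opr5 and opr8 encode oxophytodienoate reductases and were each represented by 1 probe on the array, opr5 by probe 815 and opr8 by probe 1049. They were chosen by gene symbol alone and make up 2 of the 10447 probes measured and 2 of the 506 genes named by the 728 probes that carry a symbol. The samples were leaves of Andropogon gerardii, the big bluestem of North American prairies, in a series titled as the RAMP experiment. There were 16 samples from ambient rainfall and 16 from altered rainfall, and no other treatment, genotype or age is given for either group. How the rainfall was altered is not stated in the sources used here. The samples carry ramp numbers that pair 1 ambient with 1 altered sample, and it is not stated in every case that samples of a group came from separate plants or plots, so the p-values describe variation among these samples, which may be technical in part.

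Oxophytodienoate reductases are flavin-dependent enzymes that reduce cyclic oxylipins made from membrane fatty acids. One branch of the family acts in peroxisomes on oxophytodienoic acid, the product of allene oxide cyclase, and so serves the synthesis of jasmonic acid, a hormone of wound, herbivore and drought responses in leaves. In maize, opr8 and its close relative opr7 belong to this branch. The symbols of the array follow maize gene names, so a symbol here states the annotation of a probe, and whether the spot measured the matching big bluestem transcript, or could tell members of the family apart, was not tested.

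The 2 samples of every ramp number lacked a value at exactly the same spots (16 of 16 numbers), and each number was treated as 1 array with 2 channels. Arrays held between 1833 and 9530 spots with a value. In every array the deposited intensities of the 2 samples at a spot summed to at least 100, the lowest sum per array lying between 100 and 100.2. A spot that was dim in both samples is therefore not among these values, and a gene near that limit was seen only where at least 1 of the 2 samples was brighter. Of 14 symbols listed as a check of the leaf label, 3 were found, on 4 probes. For Cab-m7, a chlorophyll a/b-binding protein gene of the leaf antenna, probe 4707 exceeded a median of 99.8% of the spots of an ambient sample (n = 16) and probe 3766 a median of 45.4% (n = 10). The median was 96.3% for pgr5, of cyclic electron flow (n = 16), and 10.8% for lls1, of chlorophyll breakdown (n = 10). Spot brightness also depends on the probe, so such positions describe a spot and not transcript abundance relative to other genes.

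Each of the 2 genes had values on 9 of the 16 arrays, which was also the median over all probes, but the arrays were mostly different ones. Values for opr5 came from ramp numbers 2, 4, 6, 7, 8, 9, 10, 11 and 13, and those for opr8 from numbers 2, 3, 6, 10, 11, 12, 14, 15 and 17. Both genes were present on 4 arrays (2, 6, 10 and 11), and on the other 2 arrays, 18 and 19, neither had a value. The sum of the 2 samples was under 200 at 5 of the 9 opr5 spots and at 5 of the 9 opr8 spots. Across arrays, between 2.04% and 80.3% of all spots had a sum that low.

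Under ambient rainfall the deposited intensity of opr5 was low in most samples and high in a few. It ran from 7.35 (number 11) over a median of 30 to 558 (number 9), with 6 values at or below 38 and the other 3 at 172, 413 and 558. On the log2 scale as deposited this was 5.52 ± 2.34 (SD, n = 9). Within its own sample the spot exceeded between 2.51% and 96.0% of all spots with a value (median 19.7%), so that the same probe lay near the bottom of some leaves' values and near the top of others'. Intensity and position did not always go together. The 172 of number 4 exceeded 19.7% of the spots of its sample, and the 30 of number 7 exceeded 67.9%.

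Under altered rainfall most opr5 values lay in a narrower band, with 2 dim exceptions. Intensities ran from 14.64 (number 6) over a median of 138 to 352.82 (number 2), and 7 of the 9 values were at 108 or above. The mean was 6.61 ± 1.57 (SD, n = 9) on the deposited log2 scale. The groups overlapped over nearly their whole range, and the 2 dimmest altered samples were partners of the 2 brightest ambient ones. Because the 2 samples of a spot always summed to at least 100, values this dim could appear only beside a brighter partner.

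The picture for opr8 was similar. Under ambient rainfall its intensity ran from 2.10 (number 11) over a median of 23 to 280 (number 15), with 5 values at or below 23 and the other 4 at 93, 108, 149 and 280. The deposited log2 mean was 4.98 ± 2.32 (SD, n = 9). Under altered rainfall no value fell below 28.06: intensities ran from there (number 15) over a median of 91 to 263.14 (number 2), with a deposited log2 mean of 6.37 ± 1.20 (SD, n = 9). The groups again overlapped, and the ambient samples held both the lowest and the highest of the 18 values.

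**Figure D1:**
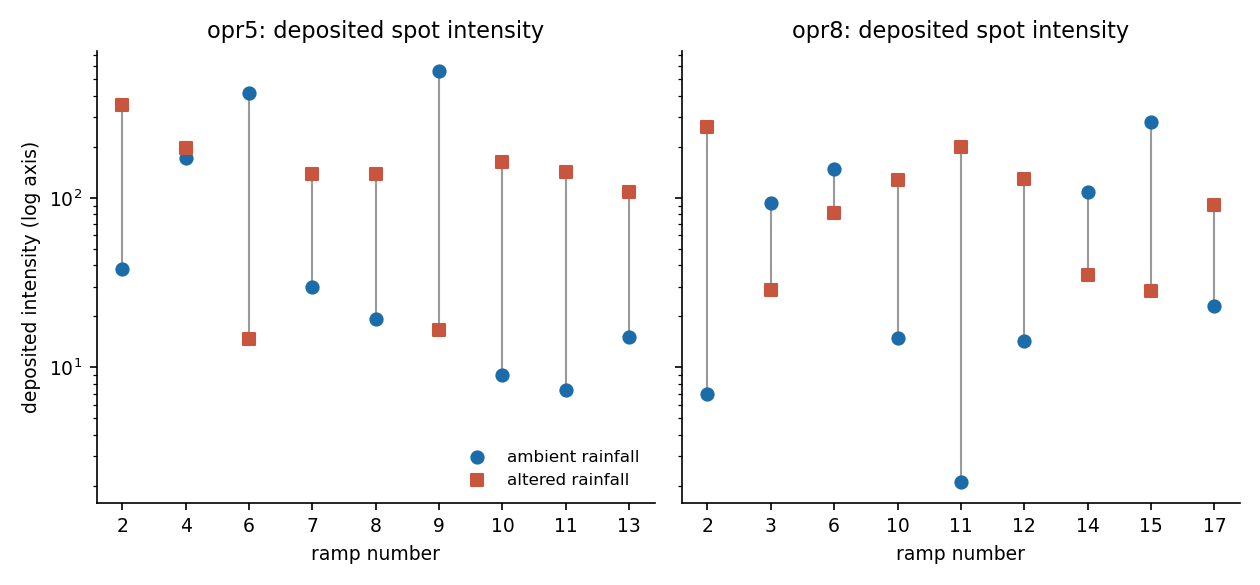
Deposited spot intensity (log axis) of opr5 (left) and opr8 (right) in the 2 samples of each ramp number with a value, circles for ambient and squares for altered rainfall, a line joining the samples of 1 number. Ambient values spread from 7.35 to 558 for opr5 and from 2.10 to 280 for opr8, and in numbers 6 and 9 (opr5) and 15 (opr8) the ambient sample was far above the altered one.

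Before the groups were compared, intensities above 0 were taken as log2 and quantile normalized between samples, because sample medians differed (from 4.25 to 8.62 log2 units). After this step the ambient mean of opr5 was 6.18 ± 1.89 and its altered mean 6.10 ± 0.98 (SD, n = 9 each). For opr8 the values were 5.60 ± 1.66 and 6.17 ± 0.83 (SD, n = 9 each). Neither gene passed the test between the rainfall groups: 0 of 2, against 9.02% of the 6384 probes tested. The change of opr5 was -0.09 ± 0.59 (SE) log2 units (95% interval -1.29 to 1.12; limma, unadjusted p = 0.88, adjusted p = 0.95). The change of opr8 was 0.56 ± 0.53 (SE), or 1.48-fold (95% interval -0.53 to 1.65; limma, unadjusted p = 0.30, adjusted p = 0.59). With ramp number as a block in the limma fit the 95% intervals were wider, -1.64 to 1.47 for opr5 and -0.89 to 2.02 for opr8. Both sets of intervals leave room for a change of more than 1 log2 unit upward in both genes and downward in opr5. In RNA of whole leaves, fewer cells that express a gene and less of its RNA per cell cannot be told apart.

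The small mean change of opr5 was the balance of large differences in opposite directions. On the quantile normalized scale the altered sample was far lower in numbers 6 (-4.50) and 9 (-4.24). It was higher in number 8 by 2.88, in number 10 by 1.68, in number 11 by 1.47 and in number 13 by 1.34. Numbers 2, 7 and 4 differed by 0.50, 0.09 and -0.01. The altered sample was therefore higher in 6 of 9 numbers, while the mean within-ramp difference was -0.09 with an SD of 2.59 (exact sign-flip permutation test, two-sided, p = 0.95, n = 9). Without number 6 the change in the limma fit was 0.47 ± 0.57 (SE), and without number 9 it was 0.44 ± 0.54 (SE), so either of these arrays alone set its sign; neither value passed (limma, adjusted p = 0.69 and 0.71). In number 9 the 2 samples correlated at r = 0.05 over all spots, and in number 6 at r = 0.51. The correlation was -0.31 in number 7, which had 1833 spots and an opr5 difference of 0.09. The part of this array property in the result was not tested.

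The differences of opr8 were also large in both directions. The altered sample was lower by 4.24 log2 units in number 15. Number 11 differed by 3.58, number 12 by 2.67, number 2 by 2.25 and number 17 by 2.13, all higher under altered rainfall. The other 4 numbers lay between -0.75 (number 3) and 0.44 (number 10). The altered sample was higher in 5 of 9 numbers, and the mean within-ramp difference was 0.56 with an SD of 2.40 (exact sign-flip permutation test, two-sided, p = 0.50, n = 9). Leaving out number 15 raised the change in the limma fit to 1.16 ± 0.46 (SE; adjusted p = 0.13), and leaving out number 11 lowered it to 0.19 ± 0.54 (SE; limma, adjusted p = 0.88). It was 0.31 without number 12, 0.36 without number 2 and 0.37 without number 17.

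On the quantile normalized scale the largest differences, in both directions, were uncommon among the spots of the same arrays, which were of every brightness. At 5 of the 9 spots of each gene the sum of the 2 samples was under 200, and spots of like brightness were not compared apart. Where the altered sample was lower, the difference exceeded in size that of 98.7% of spots in number 6 and 94.9% in number 9 for opr5, and 96.9% in number 15 for opr8. Where it was higher, it exceeded 93.8% in number 8 for opr5, and 95.8%, 92.5% and 91.9% in numbers 11, 12 and 2 for opr8. Over the 9 numbers, the SD of the within-ramp differences exceeded that of 98.1% (opr5) and 96.8% (opr8) of the 6373 probes with at least 8 such differences, whose median SD was 1.17. With within-array loess, which removes the dependence of the altered-to-ambient ratio on spot brightness, the SD was 2.71 for opr5 (above 98.7% of probes) and 1.45 for opr8 (above 82.0%). On the loess scale the higher values of opr8 in numbers 11, 12 and 2 exceeded in size only 67.9%, 70.8% and 58.4% of spots. That of opr5 in number 8 exceeded 96.2%. The lower values exceeded 98.7% and 98.8% in numbers 6 and 9 for opr5, and 95.8% in number 15 for opr8. The median absolute difference was less extreme for opr5. Quantile normalized, it was 1.47 for opr5 and 2.13 for opr8, above that of 88.2% and 96.8% of probes (median over probes 0.77). With loess it was 0.71 for opr5 and 0.85 for opr8, above that of 60.5% and 74.3% of probes (median 0.62).

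With loess the deep negative differences of both genes remained, and the positive ones of opr8 became smaller. For opr5, numbers 6 and 9 stayed at -4.29 and -5.07, while the other 7 numbers lay between 0.14 (number 4) and 3.67 (number 8). Compared with quantile normalization, its positive differences became smaller in numbers 10, 11 and 13 (0.98, 0.33 and 0.27). They became larger in numbers 2, 7 and 8 (0.55, 0.71 and 3.67). For opr8, number 15 stayed at -3.54, and the 5 numbers higher under altered rainfall came to between 0.28 and 1.10. The mean became -0.30 for opr5 (limma, adjusted p = 0.85) and -0.15 for opr8 (limma, adjusted p = 0.87), so the direction of the opr8 mean depended on the scaling, and without number 15 its loess mean was 0.27. On the deposited scale both changes were larger and upward, 1.10 ± 0.73 (SE) for opr5 and 1.39 ± 0.70 (SE) for opr8, and neither passed (limma, adjusted p = 0.36 and 0.23); the median change of all probes on that scale was 0.57. When intensities under 15.12, their 5th percentile, were raised to that value before normalization, the changes were -0.20 ± 0.52 (SE) for opr5 and 0.30 ± 0.45 (SE) for opr8 (limma, adjusted p = 0.87 and 0.74). Below that floor lay 4 ambient and 0 altered values of opr8, and 2 ambient and 1 altered of opr5.

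**Figure D2:**
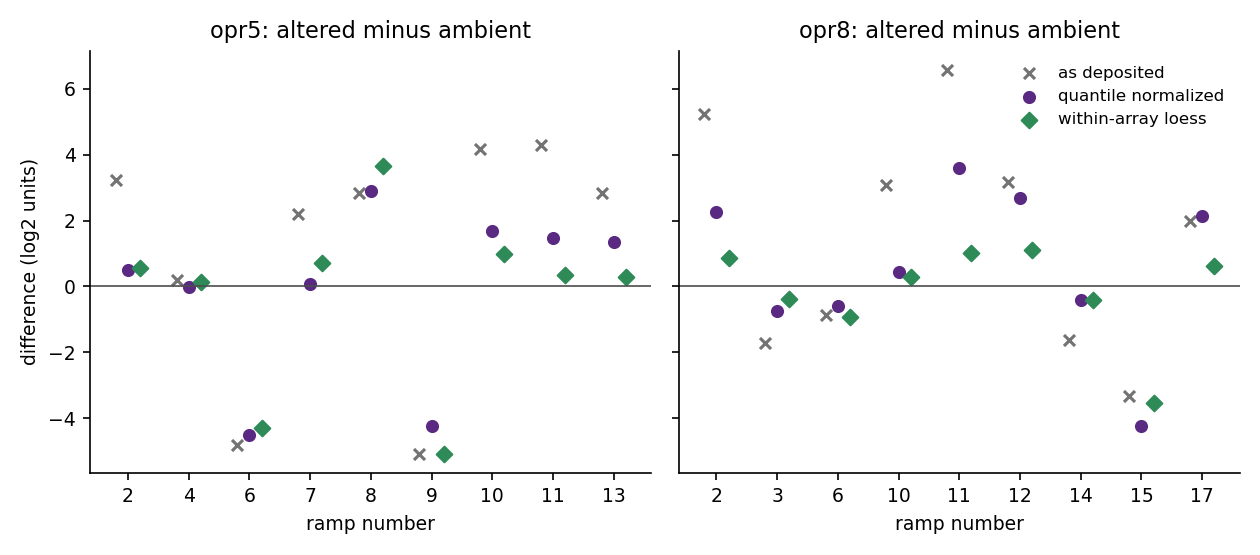
Altered minus ambient intensity (log2 units) of opr5 (left) and opr8 (right) by ramp number on 3 scales, crosses for deposited values, circles for quantile normalized values and diamonds for within-array loess. Numbers 6 and 9 for opr5 and number 15 for opr8 lie below -3 on all 3 scales, whereas the positive differences are smaller with loess than on the deposited scale in every number but 8 (2.84 and 3.67 for opr5).

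**Figure D3:**
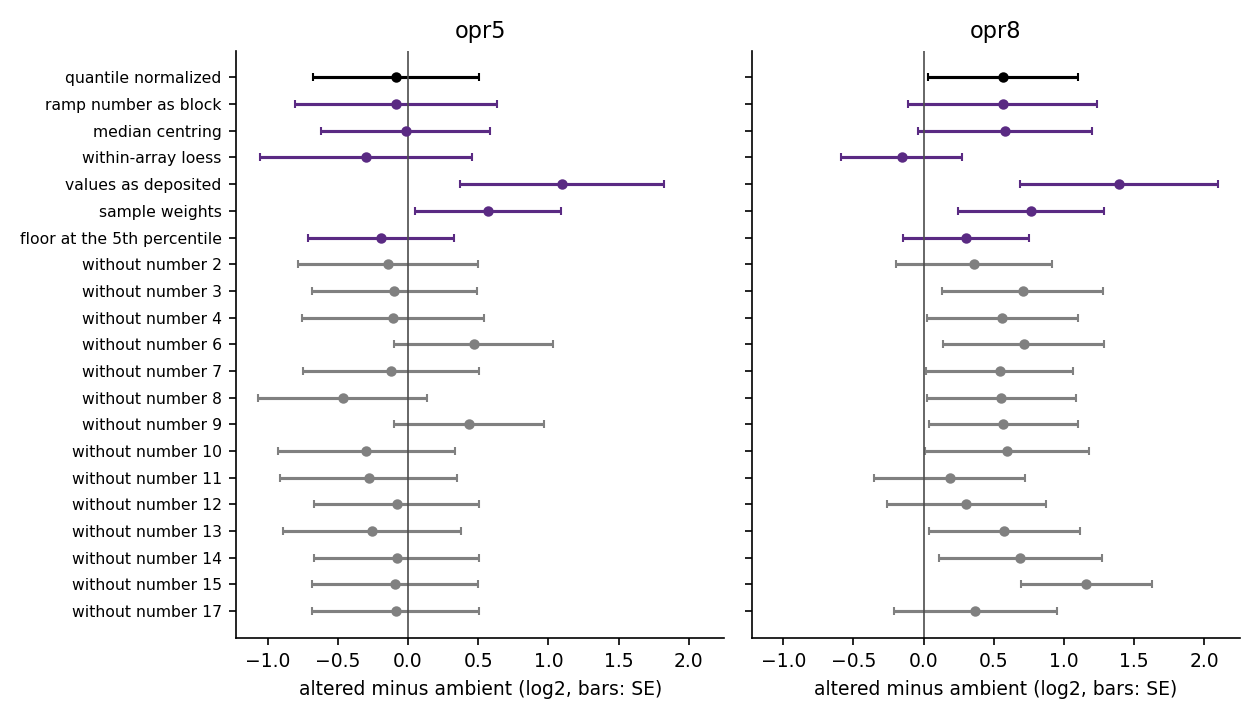
Change of opr5 (left) and opr8 (right), altered minus ambient (log2 units), from limma fits over the whole table under 7 treatments of the values and with each ramp number left out at which either gene had a value, points with SE bars. The opr5 change lies on both sides of 0, with 1.10 on deposited values, and the opr8 change is below 0 with within-array loess (-0.15).

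In the deposited intensities 1 sample of an array held whole numbers and the other had been multiplied by a factor, the altered sample on 11 arrays, the ambient sample on 4 and neither on 1. The members' differences are given by this split. In the 3 numbers with opr5 and a multiplied ambient sample (8, 11 and 13), opr5 was higher under altered rainfall in 3 of 3, by a mean of 1.90 on the quantile normalized scale and 1.43 with loess, against means of -1.31 (2 of 5 higher) and -1.54 (3 of 5 higher) where the altered sample had been multiplied. For opr8 it was higher in 2 of 2 (3.13 and 1.06) and, where the altered sample had been multiplied, in 3 of 7 on both scales (-0.17 and -0.50). Numbers 6, 9 and 15 were all among the arrays with a multiplied altered sample. The medians there were -0.01 and 0.14 for opr5 and -0.42 and -0.39 for opr8, so the opr5 means rested on its 2 lowest arrays. The median quantile normalized difference over all spots of numbers 8, 11, 12 and 13 was 0.13, 0.09, 0.07 and 0.09. Neither the difference between the 2 sets of arrays nor the part of the multiplied sample in it was tested. The sources used here do not name the dye of each sample.

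The sample descriptions have 3 wordings, which could mark batches. Within numbers 2 to 6 the change was -1.35 ± 0.89 (SE, n = 3 arrays) for opr5 and 0.27 ± 0.80 (SE, n = 3) for opr8. Within numbers 7 to 10, opr5 changed by 0.14 ± 1.09 (SE, n = 4), and within numbers 11 to 19, opr8 changed by 0.71 ± 0.77 (SE, n = 5); none of the 4 passed (limma, adjusted p between 0.62 and 0.98). For opr5 an interaction between rainfall and wording was not detected (moderated F-test in limma, unadjusted p = 0.13, adjusted p = 0.999), against 0.0346% of 5782 probes that passed. The interaction was not fitted for opr8, which had 1 array in numbers 7 to 10 (difference 0.44), and opr5 had only 2 in numbers 11 to 19 (1.47 and 1.34).

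The spread between leaves was smaller under altered than under ambient rainfall for both genes by an unadjusted test. Neither passed after adjustment over comparable probes, which no single gene could pass alone with 9 arrays. The mean absolute deviation from the group median was 1.40 log2 units under ambient and 0.68 under altered rainfall for opr5, a difference of -0.72 (exact permutation test exchanging the samples of a number, two-sided, p = 0.031, n = 9). For opr8 it was 1.32 and 0.58, a difference of -0.75 (exact permutation test, p = 0.0039, the smallest possible with 9 arrays). These p-values are unadjusted, and the 2 tests are among 5 exact tests made on these genes. The same test on all 612 probes with values on 9 arrays gave a smaller spread under altered rainfall at an unadjusted p under 0.05 for 3.1% of probes and a larger one for 1.31% (19 and 8 probes). The smallest possible p with a smaller spread was reached by 0.327% of them (2 probes, opr8 included). After Benjamini-Hochberg adjustment over those 612 probes no probe passed (0%), and the adjusted exact p was 0.81 for opr5 and 0.80 for opr8. With 9 arrays no exact p can fall below 0.0039, the value opr8 reached. A probe at that value passes only if many others share it, so this adjustment cannot decide the question for 1 gene.

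Against the whole table the members lay in the lower tail of this measure. The median difference in spread over 6373 probes was 0.00, with 49.9% of them below 0, and only 0.424% lay below opr5 and 0.282% below opr8. With loess ratios and quantile-normalized array means (Aquantile) the opr8 difference was -0.85 (exact permutation test, p = 0.0078), whereas that of opr5 was -0.29 (exact permutation test, p = 0.41). On that scale 5.74% of the probes lay below opr5 and 0.0157% below opr8. For opr5, leaving out number 9 lowered the size to -0.44 (exact permutation test, p = 0.094). Below 15.12, the 5th percentile of intensities above 0, lay 4 ambient and 0 altered values of opr8, and 2 ambient and 1 altered of opr5. The part of these dim values in the spread was not tested. The medians of the samples themselves also varied more under ambient than under altered rainfall on these arrays, with SDs of 1.19 and 0.92 log2 units for the opr5 arrays and 0.77 and 0.67 for the opr8 arrays. Median centring was also tried in place of quantile normalization. The difference in spread was then -0.69 for opr5 and -0.92 for opr8 (exact permutation tests, unadjusted p = 0.031 and 0.027). The part of the varying medians in the result was not tested further.

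**Figure D4:**
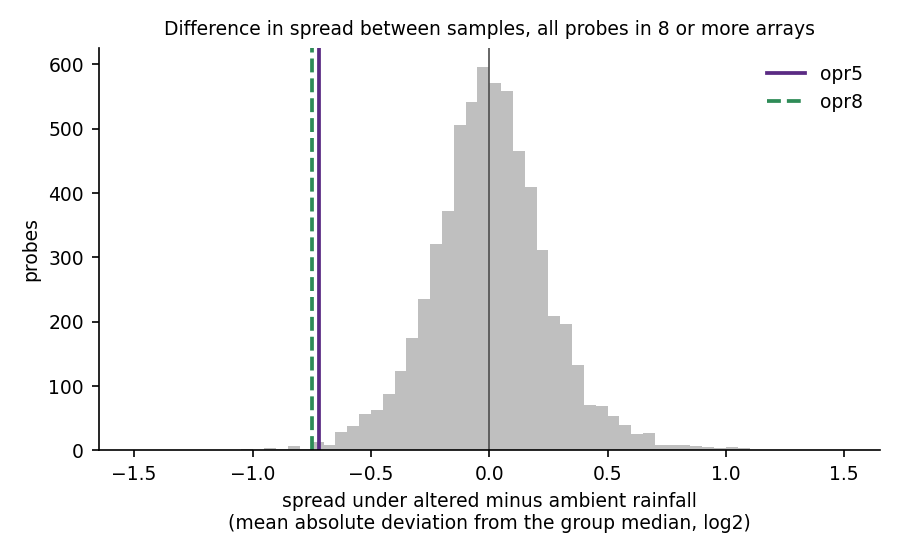
Number of probes (vertical axis) by the difference in spread between samples, altered minus ambient rainfall, as mean absolute deviation from the group median in log2 units (horizontal axis), for the 6373 probes on at least 8 arrays, with opr5 as a solid and opr8 as a dashed line. The probes centre on 0, and opr5 (-0.72) and opr8 (-0.75) lie in the left tail.

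The 2 family members could be set side by side on the 4 arrays that held both. In number 2 the altered sample differed by 0.50 for opr5 and 2.25 for opr8, and in number 6 by -4.50 and -0.60. In number 10 the differences were 1.68 and 0.44, and in number 11 they were 1.47 and 3.58. Both genes thus pointed the same way in each of the 4 numbers, but opr5 had the larger size in numbers 6 and 10 and opr8 in numbers 2 and 11. After quantile normalization, which brings the samples of an array to a like level, between 49.8% and 53.9% of all spots were higher in the altered sample of these arrays. As deposited, the share was 91.9% in number 2, 46.5% in number 6, 96.5% in number 10 and 84.1% in number 11. The part of such array-wide shifts in the shared direction of the 2 genes was not tested. The mean difference between the genes, opr8 minus opr5, was 1.63 with an SD of 2.13 (exact sign-flip permutation test, two-sided, p = 0.25, n = 4; the smallest possible p is 0.125). It was 0.88 without number 6, 2.59 without number 10, 0.92 with loess and 0.10 with loess and without number 6, so the data do not settle whether the genes respond alike. A correlation between them was not computed, because 4 arrays are fewer than the 6 required.

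Of 47 symbols listed for jasmonate and oxylipin metabolism, 3 were found on the array: opr5, opr8 and aoc1, the gene of allene oxide cyclase, which makes the substrate of the jasmonate branch of the reductases. The probe of aoc1 (10311) had values on 7 arrays and was too sparse for the test of the 6384 probes. Its intensity ran from 20 over a median of 37 to 151 under ambient rainfall, and under altered rainfall from 16 to 289.1 in 6 samples, with a listed 0 in the seventh (number 14). The sum of the 2 samples was under 200 at 6 of its 7 spots, and it reached 100 in number 12. With a looser filter of 3 values per group the change of aoc1 was 0.02 ± 0.53 (SE; 95% interval -1.08 to 1.12; limma, adjusted p = 0.99; n = 7 ambient and 6 altered). The 0 of number 14 was set missing there, while its ambient partner of 151 was kept, so this fall does not enter the change. Within the 6 ramp numbers with both values, thus without number 14, aoc1 differed by between -2.45 (number 10) and 2.94 (number 17). Its direction beside the reductases depended on the scale. On all 3 scales it was higher in numbers 2 and 17, as the reductases with a value were, and higher in number 6 (0.80 quantile normalized), where both were lower. In number 14 both aoc1, listed at 0 in the altered sample, and opr8 were lower there. In numbers 8, 10 and 12, where the reductases with a value were higher, aoc1 differed by -1.41, -2.45 and 0.88 after quantile normalization, by 0.39, -1.56 and -0.45 with loess, and by -2.44, 1.03 and 1.66 as deposited.

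**Figure D5:**
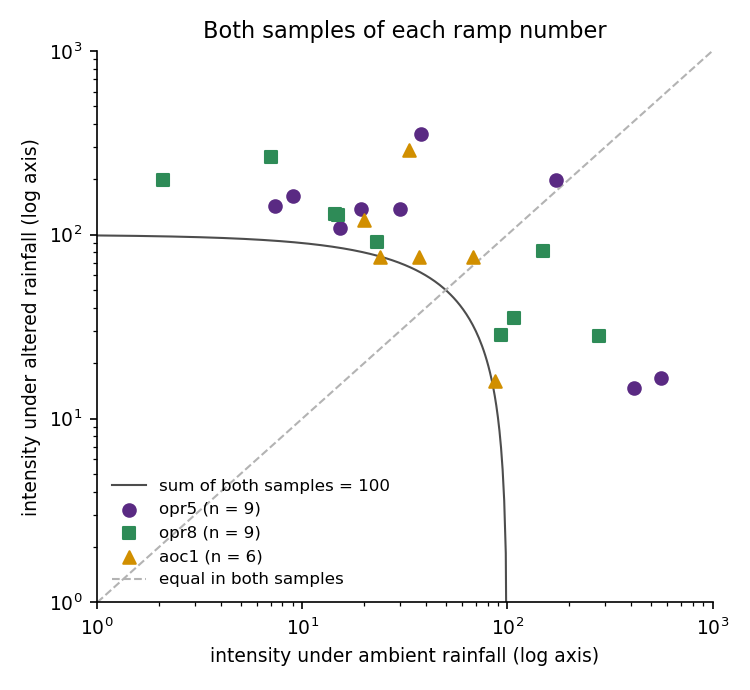
Intensity under altered rainfall (vertical, log axis) against intensity under ambient rainfall (horizontal, log axis) for each ramp number, circles for opr5, squares for opr8 and triangles for aoc1, with the curve on which both samples sum to 100 and a dashed line of equality. All points lie on or above the curve, most of them far from the line of equality, and aoc1 touches the curve in number 12 (sum 100).

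Probes with a similar pattern were sought among within-ramp loess differences. The rule required 12 shared numbers, which neither member reached, so the 9 numbers of each member were used instead, a choice made after the data were seen. Among 132 annotated probes with all 9 values, those most like opr5 were LOC542176 (probe 826, Pearson r = 0.895), LOC542476 (probe 2505, 0.833) and LOC542338 (probe 2694, 0.833), where 1% of the 1193 probes compared exceeded 0.788. Without numbers 6 and 9 these correlations were -0.02, 0.45 and 0.45, so they rested on those arrays. For opr8 the most alike of 262 annotated probes were LOC542177 (probe 11030, r = 0.885), LOC100037824 (probe 7381, 0.872) and LOC542401 (probe 5526, 0.858), with 1% of 2718 probes above 0.810. Without number 15 their correlations were 0.56, 0.46 and 0.67.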

How the data were processed

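The series table deposited by the authors holds linear spot intensity, 1 column per sample; the dyes, scanner and background correction behind it are not stated. Groups and ramp numbers came from the sample titles. Of 194148 values, 1509 (0.777%) were 0 and were set missing. The rest were taken as log2 and quantile normalized. Probes with at least 8 values per group were fitted over the whole table in R 4.3.3 by lmFit and eBayes (limma 3.58.1), without a block, two-sided, with Benjamini-Hochberg adjustment (threshold 0.05). Changes are altered minus ambient. Single values were tested by exact permutation within ramp numbers. Fits and tests were tested on simulated data. Every probe annotated opr5 or opr8 is named, besides list members and the 3 annotated probes most like each gene. The members and lists were chosen with earlier results of these data known. Alternatives were other scalings, within-array loess (span 0.4), a block, sample weights, filters and left-out numbers. The number of arrays limits the precision.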

Additional observations from a re-analysis of the deposited data

Results flagged for a closer look

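The loess difference of opr8 in number 15 (-3.54) stood apart from the other 8 numbers, the gap to the nearest of them taking up 0.565 of the whole range. The intensities behind it were 280 under ambient and 28.06 under altered rainfall, and the 2 samples of that array correlated at r = 0.20 over all spots. It was the only such value in 12 sets of levels and differences examined for opr5, opr8 and aoc1. Chance alone flags about 1 in 20 such sets, so 1 flag among 12 is not unusual.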

How the results depend on the processing

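No alternative brought a rainfall change of opr5 or opr8 past the threshold. The opr5 change turned upward on deposited values (1.10, also with the replicate block), with sample weights (0.57), within numbers 7 to 10 (0.14) and, as a within-ramp mean, without numbers 7, 9 and 19 (0.48). It ran from -0.46 to 0.47 when each number was left out, and from -0.46 to 0.46 as a within-ramp mean. With loess and a number left out it ran from -0.80 to 0.29. The opr8 change turned downward with loess (-0.15, and from -0.31 to 0.27 with a number left out), and otherwise ran from 0.19 to 1.16 with a number left out; with the floor the opr8 change was 0.30 and the opr5 change -0.20. The replicate block left the changes at -0.09 ± 0.72 and 0.56 ± 0.67 (SE). Deviations of same-numbered samples from their group means correlated above 0.1 in 14 of 16 numbers over 894 complete probes but in 2 of 16 over all probes, so the block was not made the main design. The smaller opr5 spread under altered rainfall lost its unadjusted call on deposited values (-0.83, exact permutation p = 0.063), without numbers 7, 9 and 19 (-0.31) and with Aquantile (-0.29). It also lost the call in 8 of the 9 tests that left out a number with an opr5 value (from -0.93 to -0.44 over all 9). The smaller opr8 spread kept its call in all 20 alternatives. Those that left out only numbers without an opr8 value repeated the main result. The count of 576 called probes (258 higher, 318 lower) was 343 on deposited values (259 higher, 84 lower), 1041 with the block there (902 higher, 139 lower), 131 among complete probes (38 higher, 93 lower), 158 higher and 323 lower with median centring, 202 higher and 341 lower with loess, 10, 0 and 304 within the 3 wordings (561 at an unadjusted p under 0.05 where none was called), and 456 to 619 with a number left out; the cause was not tested. The members could not be fitted among complete probes, nor opr5 in limma without numbers 7, 9 and 19 (7 arrays left), opr5 within numbers 11 to 19 or opr8 within numbers 7 to 10, and their correlation was not run. The loess fits with a number left out, Aquantile and the block on other scalings were chosen after seeing the data. Spots carry no background flags here, so a detection limit could not be set.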
